A study of Mus musculus with 3 samples.

Results

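The Six-, Eya- and Dach-family genes encode a network of nuclear proteins that marks the ectoderm from which the sense organs of the head arise. The genes followed here were 10: Six2, Six3, Six4, Six5, Six6, Eya1, Eya2, Eya3, Eya4 and Dach1. Every probe that the array files assign to these names was taken, whatever its value, which gave 18 of the 41174 probes on the array. Of these, 13 probes for 8 genes were well above background and entered the test, out of 25506 probes tested. In this set no probe differed between the genotypes past the threshold (0 of 13 at a limma adjusted p under 0.05), and for each of the 13 the 95% interval after loess normalization of the difference lay inside a 1.3-fold change either way. That bound does not hold under all processing. With the scanner's processed signals the standard error of Eya3 A_52_P331237 was 0.23, against 0.10 here, too large for an interval inside that limit. The same held there for Eya4 A_52_P86424 (0.19) and Eya4 A_52_P608186 (0.16). With ratios centred on the array median in place of loess, some means themselves lay past it. These were the log2 ratios of Dach1 (0.51), Six5 (0.48), Eya3 A_52_P427332 (0.44) and Six2 (0.41). After subtraction of the median of all tested probes, Eya4 A_52_P608186 lay past it, at -0.58.

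The tissue was otic placodal ectoderm, the patch of head surface that thickens and folds to form the inner ear, dissected from mouse embryos of 4 to 8 somites. Double null pools came from embryos without a working copy of Fgf3 or Fgf10 (Fgf3-/-;Fgf10-/-), and double heterozygote pools from embryos with 1 null and 1 intact copy of each gene (Fgf3+/-;Fgf10+/-). The embryos were otherwise untreated, and no wild-type embryos entered the comparison. Each genotype gave 3 pools of 10 placodes, which the labels call biological replicates, and each of 3 2-colour arrays carried 1 double null pool in Cy5 and 1 double heterozygote pool in Cy3. Because the dyes were never swapped, a dye effect of a probe and the genotype cannot be told apart. The ratios reported are log2 of double null over double heterozygote, with the moderated SE of limma over 3 arrays unless another error is named.

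Six-family proteins are homeodomain transcription factors named after sine oculis of Drosophila. Eya proteins do not bind DNA themselves: they join Six-family proteins at their target genes, act there as coactivators, and carry phosphatase activity. Dach proteins are related to the Ski corepressors and can take part in the same complexes. In vertebrates, Six- and Eya-family genes are active in the preplacodal ectoderm around the front of the neural plate and later in single placodes, the otic placode among them. Fibroblast growth factors such as Fgf3 and Fgf10 are among the signals that induce the otic placode.

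The probes were 60 bases long, and the first 30 bases are shown for those on which the comparison turns, written 5′ to 3′ as the array files list them. The Six2, Six4 and first Eya1 probes were the 3 whose intervals did not include 0, the second Eya1 probe gave another ratio than the first, and the 2 Eya3 probes also differed from each other. Positions are those of the array files on mouse build mm7, with the strand taken from the order of the coordinates; whether a probe lies in a coding exon or a UTR was not analysed here.
Six2 A_51_P354224, chr17:83981040-83981099, minus strand: ggtgtcatctatttgagttcctttctcaac
Six4 A_52_P420340, chr12:71051166-71051225, minus strand: tgctgcaaaggatcctctagtgattcctga
Eya1 A_52_P36315, chr1:14351185-14351244, minus strand: aaatggccagtgttgagacctcttcatttg
Eya1 A_51_P375378, chr1:14352764-14352823, minus strand: atccagtgaaagtaagccatgagaatgttc
Eya3 A_52_P427332, chr4:132102815-132102874, plus strand: ccagacacacccattgtagatgccaggttg
Eya3 A_52_P1116481, chr4:132057641-132057700, plus strand: cttaatataaggagttatatatagggtacc

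For 3 other probes the files give a genomic interval much longer than the probe, so that their bases come from separate stretches of the gene. They are shown whole, because such a probe reads RNA in which those stretches are joined. The intervals were 2700 bases for Eya3, 2288 bases for Eya4 and 8707 bases for Dach1.
Eya3 A_52_P331237, chr4:132048635-132051334, plus strand: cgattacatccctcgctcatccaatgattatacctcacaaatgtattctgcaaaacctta
Eya4 A_52_P608186, chr10:22868394-22870681, minus strand: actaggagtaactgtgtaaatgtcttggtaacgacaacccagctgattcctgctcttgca
Dach1 A_51_P356552, chr14:92183226-92191932, minus strand: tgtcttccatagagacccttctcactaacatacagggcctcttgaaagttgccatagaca

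Across each array, 27284 to 29177 spots were well above background in the double null channel and 26452 to 28258 in the double heterozygote channel. Between any 2 arrays, the correlation of log2 ratios across probes, which are not independent replicates, was 0.36 to 0.41. The Fgf3 probe had log2 ratios of -0.69, -0.06 and -0.69 on arrays 1, 2 and 3 (mean -0.48 ± 0.12, limma adjusted p = 0.121), and the Fgf10 probe had 0.31, -0.11 and 0.23 (mean 0.14 ± 0.09, adjusted p = 0.385). Whether either probe reads the deleted part of its gene was not analysed here, so neither is a check of the genotypes. Of the placodal and surface ectoderm markers, 7 of 8 were well above background (Cdh1, Cldn6, Cldn7, Epcam, Krt8, Krt18 and Pax8), and Pax2 was not. All 4 hindbrain, all 8 head and somite mesoderm and all 3 neural crest markers were also detected. In bulk tissue, fewer cells of a type and less RNA per cell cannot be told apart.

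Not all members were measurable. Six3 and Six6, which act in the forebrain and eye field, were not well above background in either channel on any of the 3 arrays, by both Six3 probes and the Six6 probe. The eye-field genes Rax and Hesx1 were likewise not well above background, while Otx2, Pax6 and Lhx2 were detected. Eya3 probe A_51_P459650 was also not well above background in any pool, although 3 other Eya3 probes were in every pool. Over these 4 probes the spot signal was 0.9995 to 1.43 times the local background in double null pools and 0.987 to 1.34 times in double heterozygote pools. No ratio is given for them, since both sides have only a bound.

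The remaining untested probe, Dach1 A_51_P356552, stood at 1.80, 2.18 and 1.96 times the local background in the double null pools and at 1.53, 1.83 and 1.58 times in the double heterozygote pools. It was well above background in both channels on 2 of 3 arrays, and its log2 ratios were -0.15, -0.10 and 0.04. The 13 tested probes ranged over 2.28 to 105.5 times the background in double null pools and 1.69 to 66.4 times in double heterozygote pools. None of their spots was saturated or marked as an outlier.

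**Figure D1:**
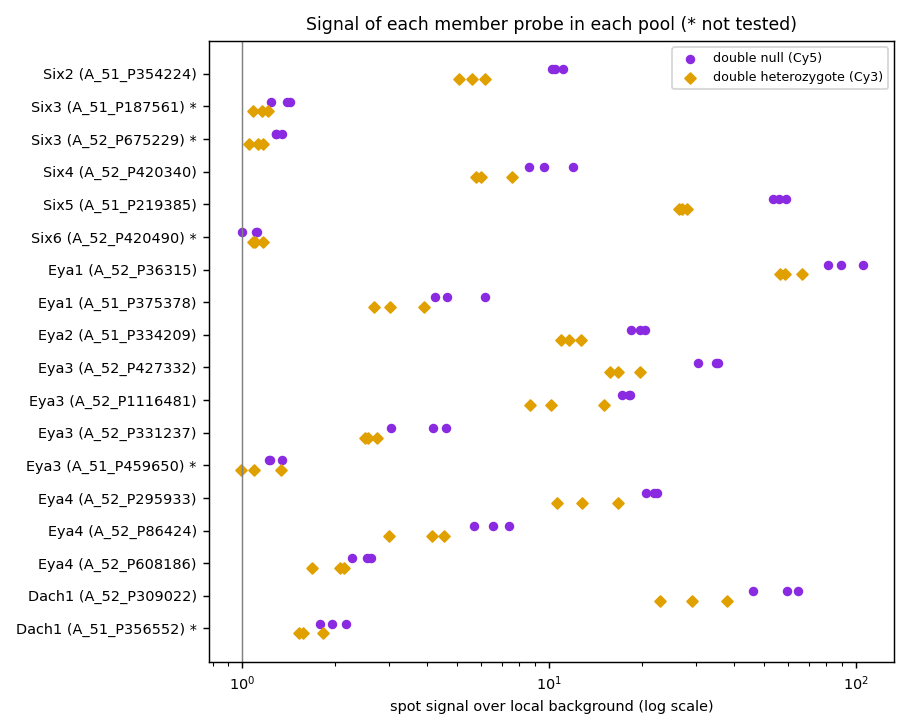
Spot signal over local background (log axis) for all 18 probes, with double null pools (Cy5, circles) above double heterozygote pools (Cy3, diamonds) in each row and 1 point per pool. The probes marked with an asterisk (both Six3 probes, Six6, 1 Eya3 and 1 Dach1 probe) were not tested; the first 4 lie at 1.43 or lower, and the Dach1 probe lies between 1.53 and 2.18; Cy5 and Cy3 are raw here, so a gap between colours is not a genotype difference.

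Over all tested probes, 379 of 25506 passed the adjusted threshold, or 1.49%, 72 of them lower and 307 higher in double nulls. The members' 0 of 13 stands beside that share, and a set this small says little at such a rate. With the test limited to mean log2 intensities up to 15, which kept all 13 member probes, 21 of 24749 passed. At an unadjusted limma p under 0.05 the members counted 3 of 13, against 20.2% of all tested probes. A ratio below 0 on all 3 arrays was seen for 2 of 13 members and 19.2% of all probes, and a ratio above 0 on all 3 arrays for 3 of 13 members and 24.6% of all probes. These shares lay near those of all tested probes. The median log2 ratio was -0.0020 over the 13 member probes (7 below and 6 above 0), 0.05 over 3 Six-family probes, -0.06 over 9 Eya probes and 0.01 over all tested probes. The single tested Dach1 probe had 0.08.

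**Figure D2:**
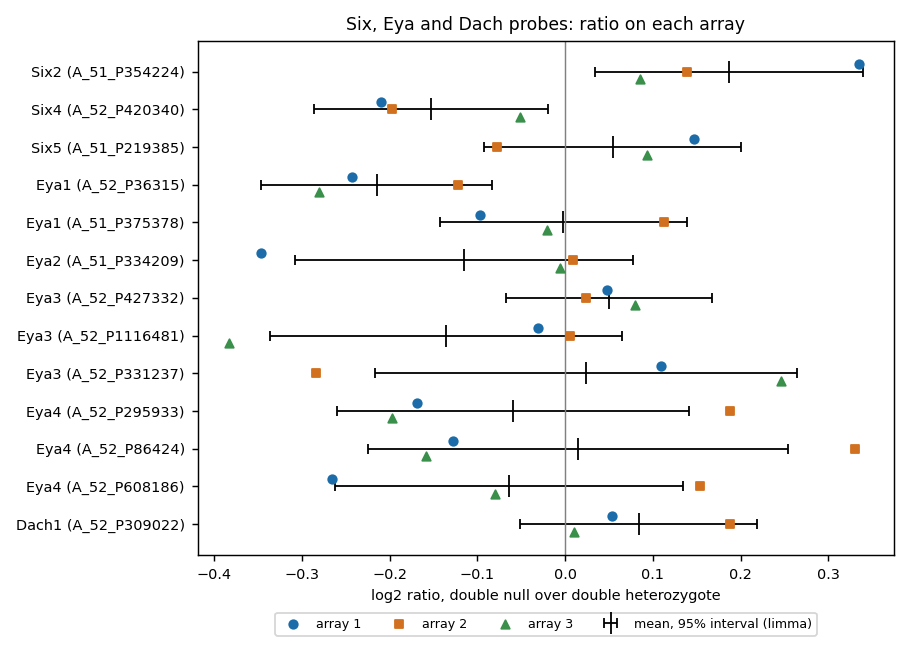
Log2 ratio, double null over double heterozygote, of the 13 tested probes on arrays 1 (circles), 2 (squares) and 3 (triangles), with the limma mean and its 95% interval. The intervals of Six2, Six4 and Eya1 A_52_P36315 do not include 0, and none reaches a 1.3-fold change; for all 3 Eya4 probes, array 2 lies right of 0 and arrays 1 and 3 lie left of it.

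Among the DNA-binding Six-family proteins, Six2 maintains nephron progenitors in the kidney. Its levels after normalization, in log2 intensity, were 8.83, 8.75 and 8.70 in the double null pools of arrays 1, 2 and 3, and 8.50, 8.61 and 8.62 in the double heterozygote pools. The double null pool was the higher on each array, as it was for 24.6% of all tested probes. The log2 ratio was 0.19 ± 0.06, a fold of 1.14 (95% interval 1.02 to 1.27), with limma adjusted p = 0.184. The per-array ratios of 0.33, 0.14 and 0.09 show that array 1 carried most of the difference. Without that array the mean ratio was 0.11. With ratios centred on the array median in place of loess it was 0.41, and 0.08 relative to the median of all tested probes.

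Six4, which is expressed in placodes and acts in muscle formation, had the opposite sign. Its levels were 8.61, 8.69 and 8.89 in double null pools and 8.82, 8.89 and 8.94 in double heterozygote pools, so that the ranges overlapped while each double null pool was below its partner on the array. The log2 ratio was -0.15 ± 0.06, a fold of 0.899 (95% interval 0.820 to 0.987; limma adjusted p = 0.202). With ratios centred on the array median in place of loess its sign turned, to 0.09, a setting that moved the median of all tested probes up by 0.30 to 0.36 on the 3 arrays; relative to that median it was -0.24.

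Six5, known in humans from its place beside the myotonic dystrophy repeat, was read by a probe at chr7:16780462-16780521 on the plus strand. It was at 11.00, 10.85 and 10.92 in double null pools and at 10.86, 10.92 and 10.83 in double heterozygote pools. Its pools overlapped and array 2 went against arrays 1 and 3. The log2 ratio was 0.05 ± 0.06 (95% interval -0.09 to 0.20, limma adjusted p = 0.652), and it was 0.0077 without array 1 and 0.12 without array 2. Under median centring it was 0.48, and 0.16 relative to the median of all tested probes. Six2 and Six3 are neighbours, as are Six4 and Six6. On mm7 the Six2 probe lay 60.8 kb from the nearer Six3 probe on chromosome 17, and the Six4 probe lay 156 kb from the Six6 probe on chromosome 12. In both neighbourhoods 1 gene was detected and the other was not.

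**Figure D3:**
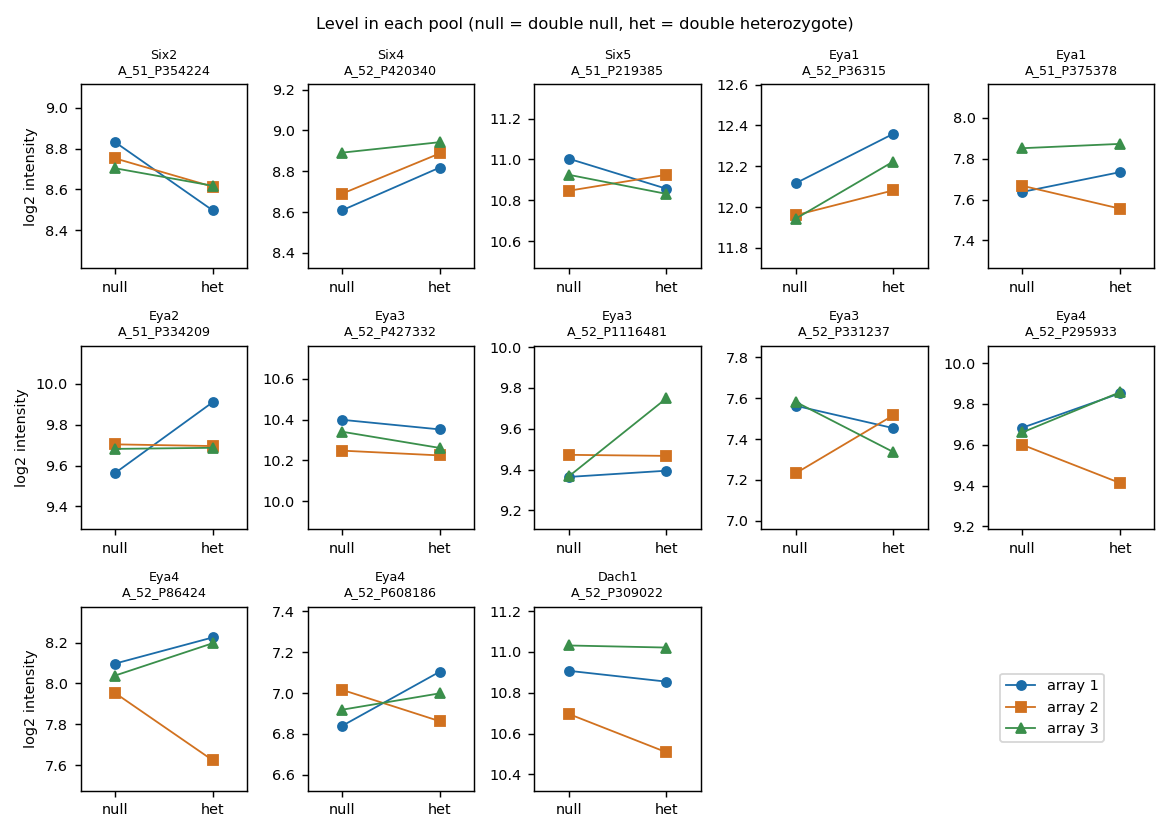
Normalized log2 intensity of the 13 tested probes in each pool, double null left of double heterozygote, with a line joining the 2 pools of an array. Eya1 A_52_P36315 and Six4 slope up toward the double heterozygote on all 3 arrays and Six2 slopes down; the double heterozygote pool of array 2 is the lowest of its group for the Eya4 probes.

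Eya1 is the member most closely tied to ear development: mice without it form no proper inner ear, and mutations of the human gene cause branchio-oto-renal syndrome. Probe A_52_P36315 read 12.12, 11.96 and 11.94 in double null pools and 12.36, 12.08 and 12.22 in double heterozygote pools. The double null pool was below its partner on all 3 arrays, by -0.24, -0.12 and -0.28, while the ranges of the groups overlapped slightly. The log2 ratio of -0.21 ± 0.05 was the lowest of the 13 and corresponds to a fold of 0.862 (95% interval 0.787 to 0.944). It missed the threshold (limma adjusted p = 0.117 over all probes, unadjusted 0.00659). Among all tested probes the ratio was at the 2.85 percentile. The sign turned under median centring, to 0.28, and relative to the shifted median of all probes it was -0.05. Under the other alternatives the probe's own ratio stayed between -0.26 and -0.18, with limma adjusted p from 0.057 to 0.288. The mean of both Eya1 probes was -0.11 (limma adjusted p = 0.325).

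The second Eya1 probe, A_51_P375378, lies 1.52 kb away and gave a different answer. Its levels were 7.64, 7.67 and 7.85 in double null pools and 7.73, 7.56 and 7.87 in double heterozygote pools, with ratios of -0.10, 0.11 and -0.02. The mean log2 ratio was -0.0020 ± 0.06 (95% interval -0.14 to 0.14, limma adjusted p = 0.989). The 2 probes differed by -0.21, past a limit of 2 times the larger standard error, 0.12, and the first was the lower on each array, by -0.15, -0.23 and -0.26. A_51_P375378 stood at 4.26 to 6.20 times the local background in double null pools and 2.69 to 3.91 times in double heterozygote pools. With the scanner's own processed signals the 2 probes were at -0.21 and -0.04. Under median centring their order turned, with A_52_P36315 at 0.28 and A_51_P375378 at 0.045. Relative to the median of all tested probes under that setting they were at -0.05 and -0.28. Why they differ was not tested.

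Eya2, another coactivator of placodes and muscle precursors, was read by 1 probe (A_51_P334209, chr2:165509915-165509974, plus strand). It was at 9.56, 9.70 and 9.68 in double null pools and at 9.91, 9.70 and 9.69 in double heterozygote pools. The pools overlapped, and array 1 alone held the difference: the ratios were -0.35, 0.0084 and -0.0054. The log2 ratio was -0.11 ± 0.08 (95% interval -0.31 to 0.08, limma adjusted p = 0.462), and without array 1 it was 0.0015.

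Eya3, the most broadly expressed of the family, had 3 tested probes. Probe A_52_P427332 was at 10.40, 10.25 and 10.34 in double null pools and at 10.35, 10.22 and 10.26 in double heterozygote pools, a log2 ratio of 0.05 ± 0.05 (limma adjusted p = 0.599). This was the smallest standard error of the 13, and the pools of an array differed by at most 0.08.

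Probe A_52_P1116481 carries the Eya3 name in the files but belongs to a clone that they call unclassifiable. It was at 9.36, 9.47 and 9.37 in double null pools and at 9.39, 9.47 and 9.75 in double heterozygote pools. The double heterozygote pool of array 3 stood above the other 5 pools, and the log2 ratio of -0.14 ± 0.08 (limma adjusted p = 0.403) was -0.01 without array 3. It differed from A_52_P427332 by -0.19, past the limit of 0.17, of which array 3 gave -0.46 and the other arrays -0.08 and -0.02. Of its 60 bases, 25% are G or C, and each reading frame holds a stop codon; the probe lies 6.31 kb from A_52_P331237.

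The joined-stretch probe A_52_P331237 was at 7.56, 7.23 and 7.58 in double null pools and at 7.45, 7.52 and 7.34 in double heterozygote pools. Its ratios changed sign between arrays, 0.11, -0.28 and 0.25, and the mean was 0.02 ± 0.10 (95% interval -0.22 to 0.26, limma adjusted p = 0.919). This was the least precise of the 13 values.

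Eya4, whose human counterpart is mutated in a dominant form of hearing loss, had 3 tested probes on chromosome 10. Probe A_52_P295933, at chr10:22859936-22859995 on the minus strand, was at 9.68, 9.60 and 9.66 in double null pools and at 9.85, 9.41 and 9.86 in double heterozygote pools. Probe A_52_P86424, at chr10:22861052-22861111 on the minus strand, was at 8.10, 7.95 and 8.04 in double null pools and at 8.23, 7.62 and 8.20 in double heterozygote pools. Probe A_52_P608186 was at 6.84, 7.02 and 6.92 in double null pools and at 7.10, 6.86 and 6.998 in double heterozygote pools.

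In each of the 3, the double heterozygote pool of array 2 was the low one of its group. The SD between pools was 0.04 in double nulls and 0.26 in double heterozygotes for A_52_P295933, 0.07 and 0.34 for A_52_P86424, and 0.09 and 0.12 for A_52_P608186 (n = 3 each). The mean log2 ratios were -0.06 ± 0.08, 0.01 ± 0.10 and -0.06 ± 0.08, with limma adjusted p = 0.723, 0.953 and 0.698. Without array 2 they were -0.18, -0.14 and -0.17, with adjusted p = 0.297, 0.398 and 0.368. The 3 Eya4 probes differed among themselves by 0.08, inside the limit of 0.20. That closeness depended on the processing. Under median centring A_52_P295933, A_52_P86424 and A_52_P608186 were at 0.28, 0.13 and -0.25. Relative to the median of all tested probes under that setting they were at -0.05, -0.20 and -0.58. A_52_P608186 stood at only 2.28 to 2.63 times the local background in double null pools and 1.69 to 2.14 times in double heterozygote pools.

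The pattern of array 2 against arrays 1 and 3, noticed after the values were seen, was shared by other Eya probes. A ratio below 0 on arrays 1 and 3 and above 0 on array 2 was found for 6 of the 13 member probes, against 8.44% of all tested probes: the 3 Eya4 probes, Eya1 A_51_P375378, Eya2 and Eya3 A_52_P1116481. For Eya2 and Eya3 A_52_P1116481 the value on array 2 was under 0.01, so only its sign belongs to the pattern. The 3 Eya4 probes read 1 gene in the same pools and are not independent of each other.

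Markers of the tissues in the dissection also moved between arrays. The 8 tested probes of the placodal and surface ectoderm list all had mean ratios below 0. Their medians were -0.35, -0.04 and -0.13 on arrays 1, 2 and 3. The array 2 pattern was seen for 4 of the 8: both Krt8 probes, Krt18 and Epcam. Epcam was at only 0.00028 on array 2. Cdh1, Cldn6, Cldn7 and Pax8 were below 0 on all 3 arrays. The pattern was also seen for 2 of 4 neural crest probes and 1 of 4 anterior neural plate and eye field probes. Over the brightest probe of each gene in the ectoderm list, detected or not, summed intensity was 78929 to 92290 in double null pools. In double heterozygote pools it was 90428 to 99122. The sums given below were taken in the same way. None of the 8 tested ectoderm probes passed the threshold. The 11 probes of the head and somite mesoderm list had medians of 0.29, -0.11 and 0.06, with sums of 31359 to 38890 in double null pools and 33753 to 39050 in double heterozygote pools, and none had the pattern. The 5 hindbrain probes all had mean ratios below 0 (median -0.14), and none had the pattern. The hindbrain sums were 43977 to 47913 in double null pools and 48134 to 60167 in double heterozygote pools. The 5 endothelium and blood probes had medians of 1.43, -0.26 and 1.72, opposite to the array 2 pattern, with sums of 1418 to 7647 in double null pools and 1639 to 2226 in double heterozygote pools; none passed the threshold. The 3 tested endoderm probes all had mean ratios below 0 (median -0.36) and none had the pattern, with sums of 4052 to 4135 in double null pools and 3887 to 5044 in double heterozygote pools. Of these, Sox17 fell by probe A_52_P279368, with ratios of -0.38, -0.61 and -0.62 and a mean of -0.53 ± 0.07 (limma adjusted p = 0.0155); its other tested probe was at -0.36 ± 0.06 (adjusted p = 0.0556). Whether these marker differences had a part in the Eya ratios was not tested.

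Dach1, the corepressor-like member, is expressed in the developing ear, eye and limb. Probe A_52_P309022, at chr14:92138750-92138809 on the minus strand, was at 10.91, 10.70 and 11.03 in double null pools and at 10.85, 10.51 and 11.02 in double heterozygote pools. The ranges of the groups overlapped. On arrays 1 and 3, though not on array 2, the pools of an array lay closer together than any 2 pools of 1 genotype. The ratios of 0.05, 0.19 and 0.01 were above 0 on all 3 arrays, and their mean was 0.08 ± 0.06, a fold of 1.06 (95% interval 0.965 to 1.16, limma adjusted p = 0.445); without array 2 the mean was 0.03. Under median centring the mean was 0.51 (limma adjusted p = 0.00033). Relative to the median of all tested probes it was 0.18 (limma adjusted p = 0.0317). Under both settings most tested probes passed the threshold.

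**Figure D4:**
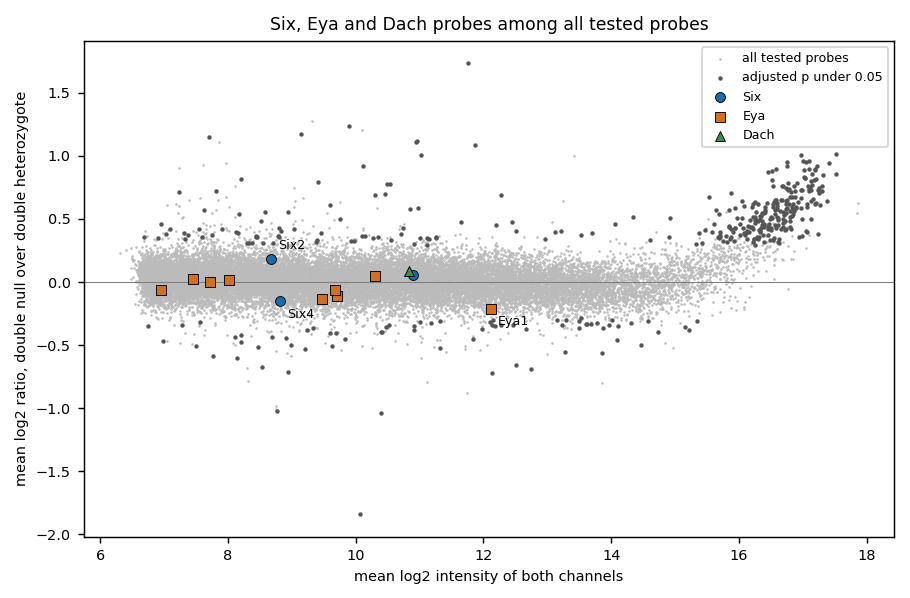
Mean log2 ratio, double null over double heterozygote, against mean log2 intensity of both channels for the 25506 tested probes (grey; dark where the adjusted p is under 0.05), with the Six-family (circles), Eya (squares) and Dach (triangle) probes. All 13 lie within the grey band, between -0.21 and 0.19, and none among the higher calls that gather above an intensity of 15.

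The proteins that meet this network at its targets were examined as a list of 16 genes, all on the array and all with a tested probe. Of 31 tested probes, 0 passed the threshold, 18 had a ratio below 0 and 13 above, and the median was -0.02. The list includes Sobp, a partner named for its binding to sine oculis in the fly, the Groucho-like Tle corepressors, the Dach relatives Ski and Skil, and H2ax, a histone that Eya phosphatases act on. Ncor1, a corepressor, had a probe at 0.24 ± 0.06 (A_52_P244895, limma adjusted p = 0.120), but 4 other tested Ncor1 probes lay between -0.09 and -0.02. Crebbp, an acetyltransferase coactivator, had a probe at -0.19 ± 0.06 (A_51_P518851, adjusted p = 0.138), and its other tested probe was at 0.05.

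Transcription factors of the preplacodal ectoderm, which act before or beside the Six- and Eya-family genes, gave 13 tested probes for the 9 of 11 genes matched on the array. None passed the threshold, 6 were below and 7 above 0, and the median was 0.03. Gata3, a zinc-finger factor needed in the ear, had ratios of -0.76, -0.12 and -0.34 with a mean of -0.41 ± 0.11 (limma adjusted p = 0.135). The double null pool was the lower on all 3 arrays. Its relative Gata2 had ratios of 0.21, 0.19 and 0.20 by probe A_51_P516625, a mean of 0.20 ± 0.05 (adjusted p = 0.105), and 0.05 by its second probe.

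The third list held 13 otic, neurogenic and myogenic genes linked to Six-Eya activity, of which 9 were tested with 11 probes. Pax2, Atoh1, Neurod1 and Myog were not well above background. Of the 11 probes, 7 were below and 4 above 0, the median was -0.12, and 2 passed the threshold. Ccnd1, the cell-cycle gene for cyclin D1, fell, with ratios of -0.39, -0.34 and -0.25 and a mean of -0.33 ± 0.05 (limma adjusted p = 0.0428); this call was lost with any 1 array left out and at an offset of 16, among other settings. Myod1, a regulator of muscle formation, rose, with ratios of 1.102, 1.33 and 1.27 and a mean of 1.24 ± 0.06 (adjusted p = 0.00302). With the scanner's processed signals and with the authors' deposited series table, both calls were lost, as was every call on the array. The other muscle precursor markers, Myf5 and Myog, were not well above background in these pools. The other 9 probes, among them those of Pax8, Sox2, Neurog1, Gdnf, Slc12a2, Myc and Ezr, ranged in mean ratio from -0.23 to 0.14.

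**Figure D5:**
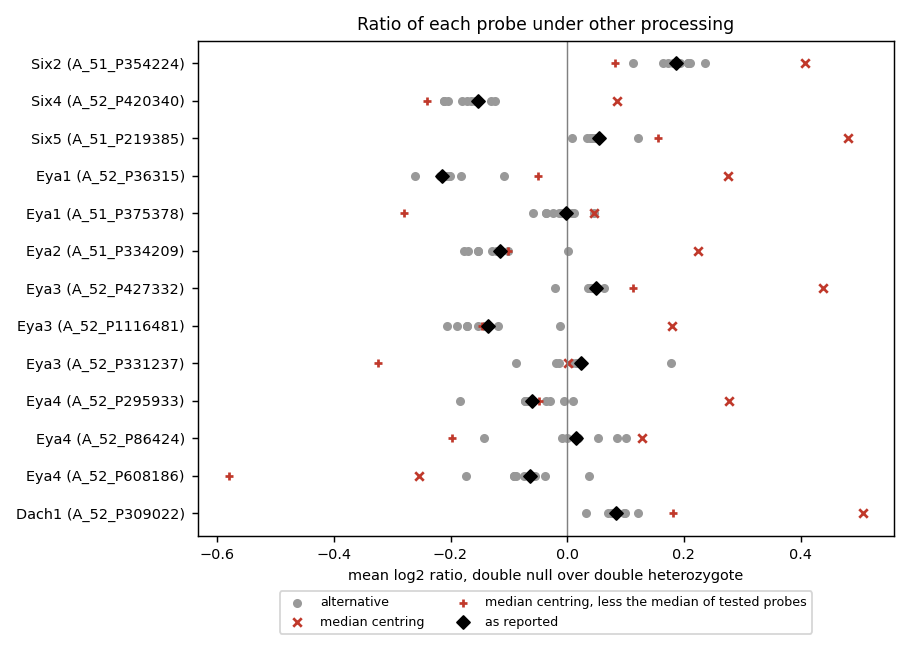
Mean log2 ratio, double null over double heterozygote, of each tested probe as reported (diamonds), under the other processing settings (grey circles), under median centring (x) and under median centring after subtraction of the median of all tested probes (plus signs). Outside median centring the values of Six2, Six4, Six5, Eya1 A_52_P36315, Eya3 A_52_P1116481 and Dach1 keep their side of 0, while the other probes have values on both sides. For Eya3 A_52_P427332 the only value below 0 (-0.021) is the mean of the gene's tested probes, and its own values stay above 0.

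Other processing left the members short of the threshold, except for median centring. Over the 18 alternatives outside the 2 forms of median centring, 224 member values were computed, of which 13 had another sign than the reported one and 0 passed the threshold. Settings that changed only the probe filter, the variance trend or the threshold, and the separate-channel fit, left the reported ratios as they were. Values from those settings could not change sign. Plain median centring put 8 member probes past it (7 higher, 1 lower), and after subtraction of the median of all tested probes 5 (1 higher, 4 lower). The same 2 settings called 19485 (2292 lower, 17193 higher) and 13927 (7617 lower, 6310 higher) of all tested probes, so that the member calls stood beside calls for most of the tested probes. With 3 arrays an exact permutation of the signs of 1 probe's ratios cannot give a two-sided p below 0.25, which is why the test across all probes was used.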

How the data were processed

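Per the labels' protocols, RNA of each placode pool was linearly amplified and labelled with an Agilent kit for low input and 2 colours. Spot values were extracted with Agilent Feature Extraction 9.5.1.1, per the submitters' processing notes. The deposited scanner files hold unnormalized mean spot and median background intensity per channel. Per the file headers they also hold background-subtracted, dye-normalized processed intensity and a log10 ratio, Cy5 over Cy3. The log2 ratios in the authors' deposited series table were equal to the scanner's log10 ratio on the log2 scale within 2.01e-06; its column medians were -0.012, -0.0082 and -0.0031. All 3 arrays are on the same slide, from the same scan session.

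Here the mean signals were background-corrected with normexp (offset 50) and normalized by loess (span 0.3; control and outlier spots at weight 0), outlier spots (143 to 175 per array) were dropped and spots of a probe averaged. A probe was tested if well above background in Cy5 on all 3 arrays or in Cy3 on all 3, and measured on at least 2. Log2 ratios were fitted with limma 3.58.1 in R 4.3.3 (intercept only, Benjamini-Hochberg over all 25506 probes, threshold 0.05). Levels per pool are log2 intensity after loess and Aquantile scaling. Probes of 1 gene were said to disagree past 2 times the larger SE. Names were updated through RefSeq records of GRCm38.p6: 22951 probes by accession, 6659 by symbol, 3109 by synonym, and 8455 kept the file's name. On simulated ratios for 25506 probes of this comparison, 85 of 100 probes changed by 0.5 and 99 of 100 changed by 1 (log2) were called, as were 6 of 25306 unchanged ones. The simulated ratios were drawn from the fit's own variance model, so real departures from it were not covered. No change as small as the members' ratios was simulated.

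The members and lists were chosen with earlier results of these data known. Every member probe is named; from a partner list, every probe past the threshold or otherwise the 2 of largest absolute ratio, while other list genes are named without a claim of change. Alternatives were other background, normalization, filter, probe, weighting and threshold settings, the scanner's and authors' ratios, separate channels and each array left out; a restriction to log2 intensities up to 15 and the subtraction of the tested probes' median were chosen after seeing the data. The 1.3-fold limit was not set in advance. The number of arrays limits the precision.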

Additional observations from a re-analysis of the deposited data

How the results depend on the processing

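The member count of 0 was 0 under all 20 alternatives except median centring (8) and median centring on the tested probes (5). The all-probe count of 379 (81.0% higher) was 19485 (88.2% higher) under median centring, 13927 (45.3% higher) on the tested probes, 199 (90.5% higher) at an offset of 16, 31 at a span of 0.1, 205 with loess on spots above background, 993 (64.0% higher) with an intensity trend, 1077 (65.1% higher) at an adjusted p under 0.10, 21 (95.2% higher) for intensities up to 15, and 0 by limma with the processed signals and the series table (4417 and 4469 at an unadjusted p under 0.05). Fitting the channels separately, with no replicate block for the pairing of pools on an array, gave 873 (66.4% higher) and changed no member call. Leaving out 1 array gave 82 (without array 3) to 309, with 245 without array 2. The 2 calls in the partner lists became 1 at an offset of 16, a span of 0.1, loess above background, intensities up to 15 and with each array left out, 0 with the processed signals and the series table, 45 under median centring and 25 on the tested probes. The cause was not tested.

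Of 250 member values, 229 kept their sign. These include values from settings that left the ratios unchanged by design. Median centring turned Eya2 (0.22), Eya1 A_51_P375378 (0.045), Eya1 A_52_P36315 (0.28), Eya3 A_52_P1116481 (0.18), Eya4 A_52_P295933 (0.28) and Six4 (0.086); on the tested probes it turned Eya3 A_52_P331237 (-0.32) and Eya4 A_52_P86424 (-0.20). Eya4 A_52_P86424 was -0.0098 at a span of 0.1 and -0.00069 with loess above background, Eya3 A_52_P427332 was -0.021 in the mean of the gene's probes, and array weights turned Eya1 A_51_P375378 (0.012) and Eya3 A_52_P331237 (-0.014). Leaving out 1 array gave 0.0077 to 0.12 for Six5, 0.032 to 0.12 for Dach1, -0.059 to 0.046 for Eya1 A_51_P375378, -0.18 to 0.0015 for Eya2, -0.087 to 0.18 for Eya3 A_52_P331237, and -0.18 to 0.0092, -0.17 to 0.037 and -0.14 to 0.10 for Eya4 A_52_P295933, A_52_P608186 and A_52_P86424.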
